A study of Mus musculus with 18 samples.

Results

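The collagen genes encode the chains of the collagen proteins. They were taken here as every row of the count files whose gene symbol consists of Col, a number, the letter a and a number. This rule found 44 of the 23420 genes in the files, and 43 of the 44 passed the filter on low counts, as did 17166 genes in all. Col10a1, a chain made by hypertrophic cartilage cells, did not pass and was not tested. Its level lay between 0.0306 and 0.396 CPM in the 18 libraries, where CPM is a count scaled to a common library total.

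Collagen chains wind around each other into a triple helix, and collagens are classed by what these helices build. Fibrillar collagens such as types I, II and III form the fibres of connective tissue, type IV forms the sheet of basement membranes, type VI forms beaded filaments around cells, and the FACIT collagens attach to the surface of fibres. In the nervous system collagen is known mainly from the meninges, the vessel walls and the sheaths of peripheral nerve, and it is made chiefly by mesenchymal cells rather than by neurons.

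RNA was sequenced from the mouse embryonic stem (ES) cell line E14, which is wild type, and from neural cultures differentiated from it, with 2 libraries in each of 9 groups. Undifferentiated ES cells, grown without feeders and with LIF, formed 4 groups: a control, 24 h of GW3965, 24 h of LG268, and 24 h of both. GW3965 is a synthetic agonist of the liver X receptors, LG268 is a synthetic agonist of the retinoid X receptors with which they pair, and the treatment protocol gives 1 µM for each and dimethylsulfoxide as the vehicle. The other 5 groups were differentiated cultures at day 8, at day 16 without and with GW3965, and at day 17 without and with GW3965. Differentiation ran through embryoid bodies without LIF, with 5 µM retinoic acid for 4 days, and then on laminin and poly-L-ornithine in N2 medium. The labels do not say how long the day 16 and day 17 cultures were exposed to GW3965. All cells came from 1 cell line, and the labels number the replicates without saying that they were separate cultures, so every p-value measures the spread between libraries that may be technical.

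Libraries held 16.75 to 44.79 M gene counts. The files of the 4 day 17 libraries list 31.84 to 33.53% of reads as aligned more than once and the other 14 files list 0, so a difference between day 16 and day 17 cannot be told apart from this difference in the files. ES cell markers (Pou5f1, Nanog, Zfp42, Esrrb and Dppa3) summed to 1473 CPM in the ES control and 49.7 CPM at day 8, and 6 neuron markers summed to 396 CPM in the ES control, 2222 CPM at day 8 and 1305 CPM at day 16. A fibroblast and mesenchyme list of 9 genes (Pdgfra, Pdgfrb, Twist1, Prrx1, Dcn, Lum, Postn, Thy1 and Fap) summed to 57.4 CPM in the ES control, 453 CPM at day 8 and 1745 CPM at day 16. In bulk RNA, fewer cells of a type and less RNA per cell cannot be told apart.

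Collagen transcripts made up a small share of the ES cell transcriptome and a larger one at each step of differentiation up to day 16. In the ES control they took 0.0867% ± 0.000694 (SD, n = 2) of all gene counts, at day 8 0.452% ± 0.0209 and at day 16 1.72% ± 0.128. With GW3965 at day 16 the share was 0.954% ± 0.14, below both untreated libraries. At day 17 the share was 1.40% ± 0.0173 without GW3965 and 1.38% ± 0.0969 with it, and these groups overlapped. In ES cells the share lay between 0.0708% and 0.0933% in all 8 libraries. A comparison of 2 libraries with 2 cannot give an exact permutation p below 0.333 for a single value of this kind, so no p is given for it.

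**Figure D1:**
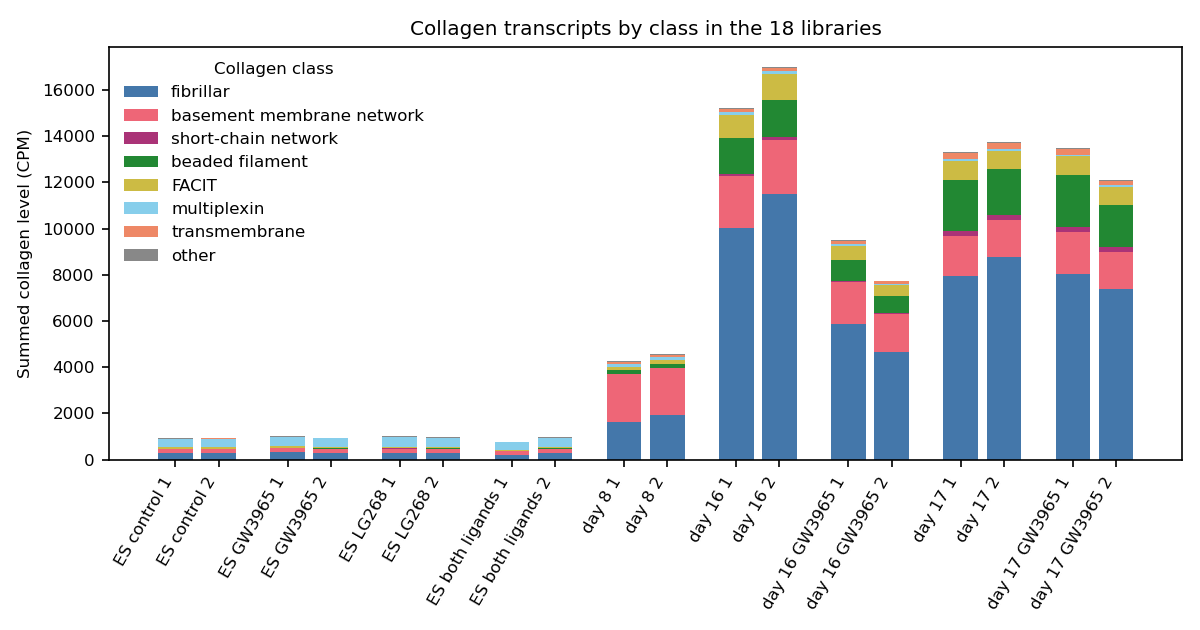
Summed level of the collagen genes in each of the 18 libraries, in CPM on the vertical axis from 0, with each bar split by collagen class. The 2 day 16 bars reach 15234 and 17013 CPM, the 2 day 16 GW3965 bars 9499 and 7742 CPM, and the 2 ES control bars 923 and 939 CPM.

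The makeup of the collagen pool also differed between stages. In ES control cells the multiplexin class, almost all of it Col18a1, held 39.7% of the summed collagen CPM, the fibrillar class 29.7% and the basement membrane class 18.5%. At day 8 the basement membrane class held 46.5% and the fibrillar class 40.3%, whereas at day 16 the fibrillar class held 66.8% and the basement membrane class 14.2%. The beaded filament class held 1.93% in the ES control, 3.90% at day 8, 9.84% at day 16 and 15.4% at day 17.

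Per kilobase of transcript, which allows levels of different genes to be compared, Col18a1 was the highest collagen of the ES control at 66.0 CPM per kb. Next came Col4a1 at 15.2 and Col5a1 at 14.2 CPM per kb, followed by Col1a1 at 8.50, Col4a2 at 8.30 and Col1a2 at 8.25, and the libraries of these last genes overlapped. At day 8 Col4a1 at 191 CPM per kb (libraries 193 and 189) and Col3a1 at 179 (163 and 195) did not differ beyond their spread, and Col4a2 followed at 113. At day 16 the order was Col3a1 at 770, Col1a1 at 530, Col1a2 at 376 and Col4a1 at 193 CPM per kb, and the libraries of these neighbours did not overlap. Col3a1 led in the other 3 differentiated groups of days 16 and 17 too.

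Between ES control and day 8 most collagens changed, and more rose than fell. At an adjusted p below 0.05 in edgeR's quasi-likelihood test, 29 of 43 collagens rose and 8 fell, where 39.7% of all tested genes rose and 39.1% fell. The median log2 fold change was 1.93 over the collagens and 0.00 over all tested genes. Between day 8 and day 16, 31 of 43 rose and 1 fell, against 29.4% and 32.2% of all tested genes, with a median of 1.89 over the collagens and -0.04 over all genes. These steps share the day 8 libraries. Of 9 fibroblast and mesenchyme markers 8 rose and 1 fell at the first step, and 7 rose at the second. Their sum rose 7.9-fold at the first step. The sums of parietal and primitive endoderm (6.4-fold), neurons (5.6-fold), neural progenitors (4.3-fold) and smooth muscle and pericytes (1.7-fold) rose there too. Those of the remaining lists fell. At the second step all 5 astrocyte markers rose too, from a sum of 58.3 to 861 CPM. All 5 smooth muscle and pericyte markers rose as well, from 532 to 1617 CPM. Of 5 Schwann cell and neural crest markers 4 rose, from a sum of 31.1 to 77.8 CPM, below the 97.5 CPM of the ES control. Other lists had lower sums at day 16 than at day 8. Neurons had 1305 against 2222 CPM, neural progenitors 675 against 791 and parietal and primitive endoderm 315 against 348. Endothelium had 40.3 against 68.3 CPM and cartilage 4.25 against 6.56. The part of these markers' cells in the result was not tested.

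Of the 43 collagens, 21 rose at both steps and 8 rose by day 8 with no call after it. Another 7 fell by day 8 and rose by day 16, 3 rose at the second step with no call at the first, 3 were called at neither, and Col18a1 fell at both. The shares of all tested genes with these joint patterns were not counted, so the counts only sort the collagens.

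**Figure D2:**
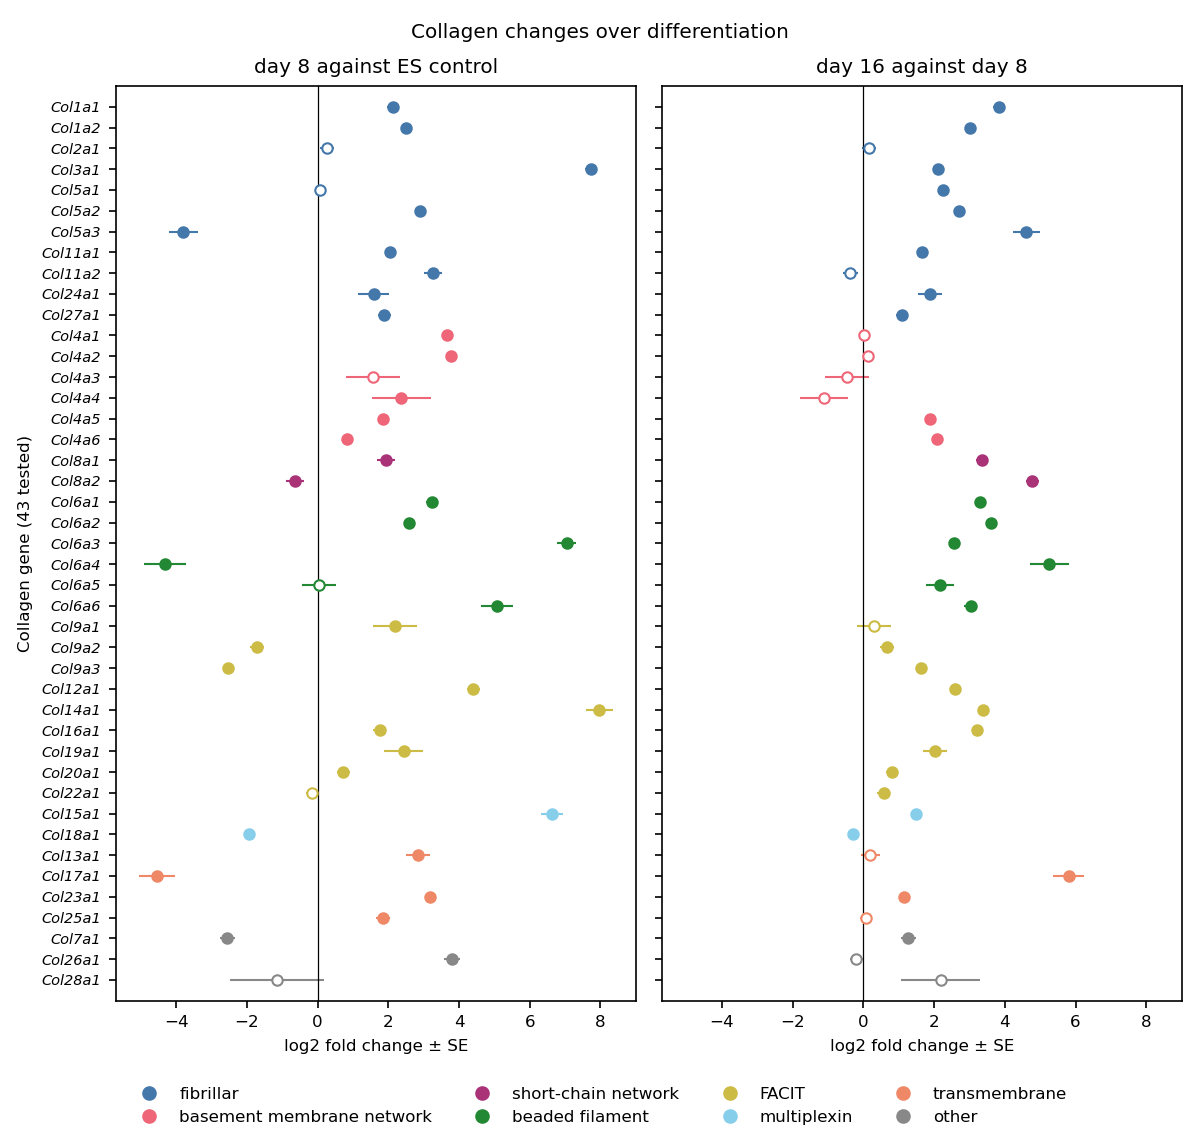
The log2 fold change of each of the 43 tested collagens, with its standard error as a bar, from ES control to day 8 (left) and from day 8 to day 16 (right). Points are coloured by class and filled where the adjusted p is below 0.05; 29 lie to the right of 0 and filled in the left panel and 31 in the right panel.

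Among the fibrillar chains, 8 of 11 rose and 1 fell by day 8, and 9 of 11 rose between day 8 and day 16. The shares of all tested genes were 39.7% and 39.1% by day 8, and 29.4% rose between day 8 and day 16. Col3a1, the single chain of type III collagen, lies on chromosome 1 from 45311538 to 45349706 on the plus strand of GRCm38 (mm10). It had 4.66 and 4.70 CPM in the ES control, 906 and 1084 at day 8, and 4012 and 4552 at day 16. None of these groups overlapped, and the log2 fold changes were 7.73 ± 0.16 (SE, adjusted p = 4.46e-19) to day 8 and 2.11 ± 0.11 from day 8 to day 16.

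Type I collagen, the main collagen of most fibres, is built from the Col1a1 and Col1a2 chains. Col1a1 (chromosome 11, 94936224 to 94953042, plus strand) had 48.7 and 52.1 CPM in the ES control, 201 and 241 at day 8, and 2893 and 3393 at day 16. Col1a2 (chromosome 6, 4504814 to 4541544, plus strand) had 43.5 and 44.8 CPM, 234 and 265, and 1872 and 2150 in the same groups. Both genes rose at both steps with no overlap between groups. Col1a1 rose by 2.13 ± 0.17 on the log2 scale to day 8 and by 3.83 ± 0.17 after it (adjusted p = 5.81e-13), and Col1a2 by 2.50 ± 0.12 and 3.01 ± 0.12. The ratio of Col1a1 to Col1a2 CPM was 1.12 and 1.16 in the ES control libraries, 0.859 and 0.912 at day 8, and 1.55 and 1.58 at day 16.

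The chains of type V collagen, which takes part in starting type I fibres, did not keep one course. Col5a1 had 119 and 120 CPM in the ES control, 119 and 135 at day 8 and 567 and 649 at day 16. Col5a2 had 10.1 and 7.63 CPM, 63.8 and 67.9, and 408 and 449. At the first step Col5a1 was not called (0.08 ± 0.12) while Col5a2 rose by 2.90 ± 0.15, and the Col5a1 to Col5a2 ratio was 13.8 in the ES control, 1.92 at day 8 and 1.42 at day 16. Both rose at the second step, by 2.26 ± 0.12 and 2.70 ± 0.12. The third chain, Col5a3, had 4.70 and 4.86 CPM in the ES control, 0.658 and 0.0653 at day 8 and 6.30 and 10.3 at day 16. It fell by 3.80 ± 0.42 and then rose by 4.61 ± 0.39, but its day 8 libraries held 17 and 2 counts and these sizes depend on which is kept. Without day 8 replicate 1 the Col5a3 values were -6.09 and 6.88, and without day 8 replicate 2 they were -2.85 and 3.64, all called.

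The stretch just upstream of the transcription start was taken for Col3a1, Col5a1, Col18a1 and Col4a5. The stretches of Col18a1 and Col4a5 overlap an annotated exon and were left out, so those of Col3a1 and Col5a1 are printed. Each is the 250 bases before the RefSeq start on GRCm38.p6, plus strand, chr1:45311288-45311537 for Col3a1 and chr2:27886175-27886424 for Col5a1, with capitals for the TATAAA motif, the CCAAT motif and the GGGCGG motif, each searched on both strands.

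Col3a1: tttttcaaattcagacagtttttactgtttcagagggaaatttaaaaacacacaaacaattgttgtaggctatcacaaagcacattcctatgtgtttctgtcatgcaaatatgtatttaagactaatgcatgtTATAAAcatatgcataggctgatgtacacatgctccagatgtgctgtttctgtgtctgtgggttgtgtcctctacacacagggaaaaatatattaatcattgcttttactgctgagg

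Col5a1: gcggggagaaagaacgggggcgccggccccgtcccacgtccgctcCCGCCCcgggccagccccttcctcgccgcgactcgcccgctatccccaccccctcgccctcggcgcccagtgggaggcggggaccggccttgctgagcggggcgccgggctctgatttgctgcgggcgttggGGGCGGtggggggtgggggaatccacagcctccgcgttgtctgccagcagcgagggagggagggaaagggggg

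The Col3a1 stretch holds 1 TATAAA, starting 117 bases before the start, and neither a GGGCGG nor a CCAAT. The Col5a1 stretch holds 2 GGGCGG matches and neither of the others. RefSeq windows were matched for 35 of the 44 collagens, in 38 windows. GGGCGG was in 57.9% of these and in 32.7% of the 32851 windows of all genes. TATAAA was in 13.2% and 12.4%, and CCAAT in 34.2% and 33.8%. A match, or its absence, describes these letters in these windows only.

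Col11a1, a chain of the thin fibrils of cartilage and other tissues, had 15.8 and 13.7 CPM in the ES control, 57.4 and 64.2 at day 8 and 187 and 199 at day 16. Its partner Col11a2 had 0.879 and 1.03 CPM, 9.94 and 8.46, and 6.50 and 7.63. Both rose by day 8, by 2.05 ± 0.10 and 3.26 ± 0.26, and Col11a1 rose further by 1.67 ± 0.08 while Col11a2 was not called at the second step. Col2a1, the main cartilage collagen, had 20.7 and 21.4 CPM in the ES control, 25.1 and 25.2 at day 8 and 29.7 and 26.5 at day 16, and was not called at either step. The cartilage markers Acan, Matn1 and Comp were at 0.0193 to 0.120 CPM at day 8 and 0.206 to 0.515 CPM at day 16 on average. The other 2 of the 5 listed cartilage markers were higher, Hapln1 at 3.56 and 2.40 CPM and Lect1, now named Cnmd, at 2.77 and 0.873 CPM. The whole list summed to 10.5 CPM in the ES control, 6.56 CPM at day 8 and 4.25 CPM at day 16.

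In the basement membrane class 5 of 6 chains rose by day 8 and 2 of 6 from day 8 to day 16, where 39.7% and 29.4% of all tested genes rose, so the second count is near the background. Col4a1 and Col4a2, whose chains form the common type IV network, had 101 and 99.6 CPM and 55.1 and 52.0 CPM in the ES control. Col4a1 stood at 1275 and 1250 CPM at day 8 and at 1246 and 1305 at day 16. Col4a2 stood at 729 and 729 CPM and at 772 and 823. Both rose by day 8, Col4a1 by 3.65 ± 0.09 (adjusted p = 4.43e-18) and Col4a2 by 3.77 ± 0.11, and neither was called from day 8 to day 16 (0.01 ± 0.08 and 0.13 ± 0.09). These genes lie head to head on chromosome 8: Col4a1 runs from 11312826 down to 11198423 on the minus strand and Col4a2 from 11312805 to 11449287 on the plus strand, so that their first 22 bases overlap. The counting is not stated to have used strand, and reads from those shared bases cannot be assigned.

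Col4a5 and Col4a6, a second head-to-head pair on chromosome X whose first bases are 1308 bases apart, took a later course. Col4a5 had 12.0 and 13.7 CPM in the ES control, 43.9 and 47.8 at day 8 and 169 and 167 at day 16. Col4a6 had 5.10 and 5.22 CPM, 9.56 and 8.72, and 39.4 and 37.8. Both rose at both steps, Col4a5 by 1.84 ± 0.10 and 1.87 ± 0.08 and Col4a6 by 0.82 ± 0.13 and 2.08 ± 0.11. Col4a3 and Col4a4, the chains of specialised membranes such as those of the kidney, stayed at or below 1.54 CPM in every library.

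Parietal and primitive endoderm is a known source of type IV collagen in embryoid bodies. By day 8, 7 of 7 listed markers (Gata4, Gata6, Sox7, Sox17, Dab2, Thbd and Cubn) rose, where 39.7% of all tested genes rose. Their sum rose 6.4-fold. The fibroblast and mesenchyme (7.9-fold), neuron (5.6-fold), neural progenitor (4.3-fold) and smooth muscle and pericyte (1.7-fold) sums rose too, and those of the remaining lists fell. From day 8 to day 16, 2 of the 7 endoderm markers rose and 2 fell, near the 29.4% and 32.2% of all tested genes. The part of any of these cells in the result was not tested.

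Of the beaded filament chains, 4 of 6 rose and 1 fell by day 8, and 6 of 6 rose from day 8 to day 16. The shares of all tested genes were 39.7% and 39.1% by day 8, and 29.4% rose from day 8 to day 16. Col6a1, a chain of type VI collagen, had 7.25 and 6.96 CPM in the ES control, 64.6 and 68.9 at day 8 and 635 and 695 at day 16. Col6a2, its partner chain, had 7.52 and 7.31 CPM, 41.6 and 47.7, and 509 and 593. The libraries of each group lay apart from those of the stage before, and Col6a1 rose by 3.23 ± 0.16 and 3.31 ± 0.12, Col6a2 by 2.59 ± 0.16 and 3.62 ± 0.13. Col6a3, the chain with the longest globular ends, had 0.440 and 0.395 CPM in the ES control, 52.7 and 58.6 at day 8 and 362 and 289 at day 16. It rose 132-fold by day 8 (log2 7.05 ± 0.27, adjusted p = 2.60e-15), a size that rests on the low ES control levels. Col6a6, a chain that can replace Col6a3, had 0.176 and 0.0790 CPM, then 4.37 and 4.41, then 31.1 and 40.4, and was called higher at both steps. Col6a4, another alternative chain, had 2.46 and 1.98 CPM in the ES control, 0.0387 and 0.163 at day 8 and 4.07 and 4.41 at day 16, and was called lower and then higher.

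Among the FACIT collagens 6 of 9 rose and 2 fell by day 8, and 8 of 9 rose from day 8 to day 16. The shares of all tested genes were 39.7% and 39.1% by day 8, and 29.4% rose from day 8 to day 16. Col12a1 and Col14a1 bind the surface of type I fibres. Col12a1 had 4.13 and 5.18 CPM in the ES control, 85.0 and 112 at day 8 and 557 and 637 at day 16. Col14a1 had 0.132 and 0.0790 CPM, 26.6 and 28.0, and 259 and 303. Col12a1 rose by 4.40 ± 0.18 and 2.60 ± 0.13, and Col14a1, for which the ES control libraries held too few counts for a fold, was called higher at both steps. Of the chains of type IX collagen, which coats cartilage fibrils, Col9a2 had 14.4 and 16.4 CPM in the ES control, 4.57 and 4.80 at day 8 and 7.61 and 7.21 at day 16. Col9a3 had 17.0 and 20.1 CPM, 3.29 and 3.14, and 10.3 and 9.75. Both fell by day 8, Col9a2 by 1.72 ± 0.20 and Col9a3 by 2.53 ± 0.15, and rose again by 0.66 ± 0.21 and 1.64 ± 0.15 without reaching the ES control level in any library. The second rise of Col9a2 was not called without day 8 replicate 1 (adjusted p = 0.0574). Col9a1 went the other way at the first step, from 0.264 and 0.553 CPM to 1.70 and 2.09.

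Col18a1, the multiplexin whose end fragment is endostatin, was the collagen that fell at both steps. It lies on chromosome 10 from 77052178 to 77166548 on the minus strand. It had 364 and 375 CPM in the ES control, 99.0 and 93.3 at day 8 and 80.3 and 77.4 at day 16. The 3 stages did not overlap, and the log2 fold changes were -1.94 ± 0.09 (adjusted p = 7.55e-14) and -0.29 ± 0.09 (adjusted p = 0.0101). Without day 8 replicate 1 the second was -0.26 (adjusted p = 0.0541). Its relative Col15a1, found in the membranes of muscle and vessels, went from 0.0879 and 0.198 CPM in the ES control to 12.2 and 17.4 at day 8 and 40.6 and 42.4 at day 16, and was called higher at both steps.

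Of the 4 transmembrane collagens 3 rose and 1 fell by day 8, and 2 rose after it. Of all tested genes 39.7% rose and 39.1% fell by day 8 and 29.4% rose after it. With 4 genes, these counts are not read as a result about the class. Col23a1 had 5.41 and 6.56 CPM in the ES control, 53.5 and 56.4 at day 8 and 128 and 114 at day 16, rising by 3.19 ± 0.13 and 1.14 ± 0.10. Col17a1, a component of hemidesmosomes in skin, had 3.43 and 1.78 CPM, 0.116 and 0.0980, and 7.37 and 5.18, and was called lower and then higher. Col7a1, the anchoring fibril collagen of skin, had 18.6 and 18.6 CPM, 3.33 and 2.97, and 7.78 and 7.43. It fell by 2.56 ± 0.21 and rose by 1.27 ± 0.22. Of the short-chain network collagens, Col8a2 had 2.99 and 3.68 CPM, 1.93 and 2.32, and 53.3 and 64.6, and rose 27.6-fold from day 8 to day 16 (log2 4.78 ± 0.18). Its call at the first step (-0.64, adjusted p = 0.0279) ended in limma-voom (adjusted p = 0.14) and without ES control replicate 2 or day 8 replicate 1.

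The remaining chains were less abundant or moved with those above. Col8a1, the partner of Col8a2, had 1.85 and 1.19 CPM in the ES control, 5.96 and 5.52 at day 8 and 59.4 and 57.1 at day 16, and rose at both steps. Col16a1 rose at both steps as well, from 3.82 and 4.54 CPM through 13.3 and 15.1 to 129 and 134. So did Col27a1, from 5.63 and 8.22 CPM through 26.5 and 25.1 to 50.7 and 57.9, and at lower levels Col19a1, Col20a1 and Col24a1, which reached 3.44 to 12.3 CPM at day 16. Col26a1 rose by day 8 from 3.74 and 2.96 CPM to 44.1 and 48.6 and was not called after that, at 38.7 and 41.8 CPM. Col13a1 and Col25a1, both transmembrane, and Col4a4 had the same pattern of calls. That of Col4a4 ended without ES control replicate 2 (adjusted p = 0.143) or day 8 replicate 1 (0.167). Col22a1 and Col6a5 were called higher at the second step and not at the first, the call of Col22a1 ending without day 8 replicate 2 (adjusted p = 0.0935) or day 16 replicate 2 (0.188), and Col28a1 was at or below 0.577 CPM in every library.

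**Figure D3:**
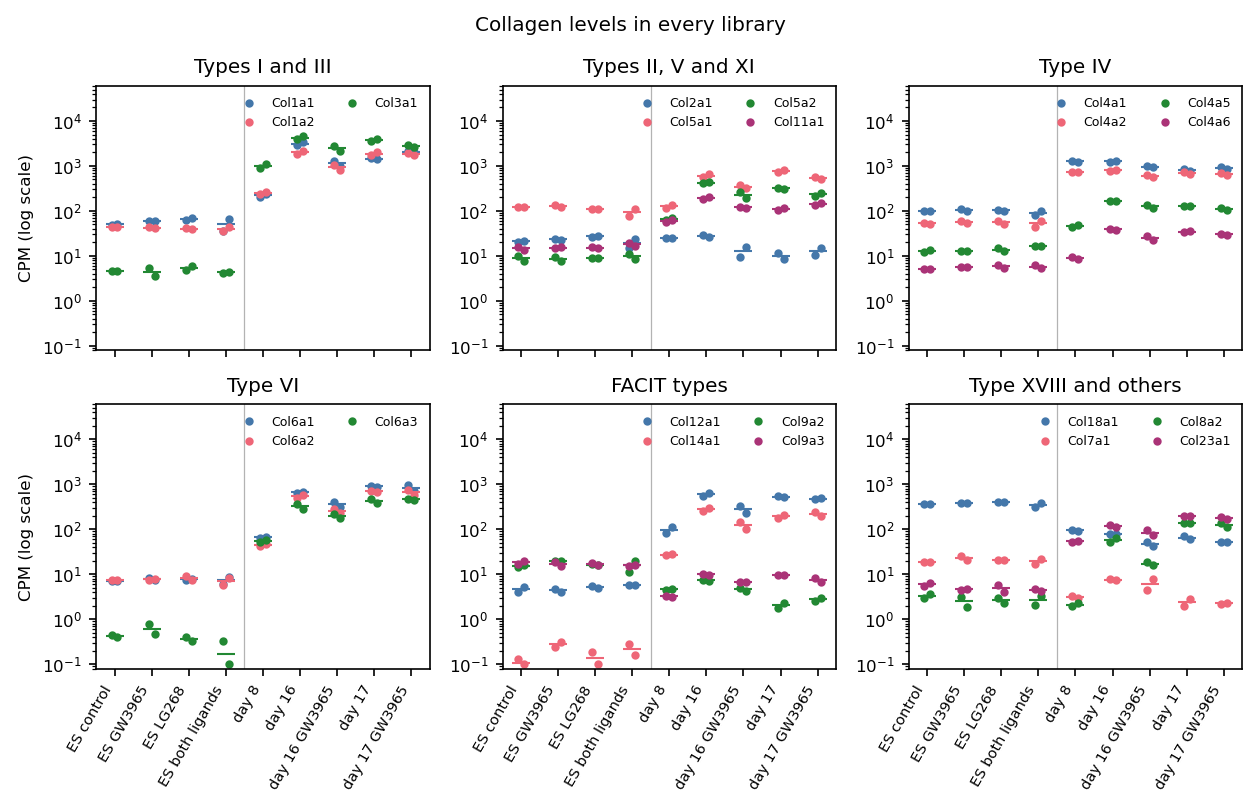
Level of the main collagen genes in every library, in CPM on a log axis, with the 9 groups along the horizontal axis. Each dot is a library, each short line a group mean, values below 0.1 CPM are drawn at 0.1, and the grey line separates undifferentiated from differentiated groups. Col18a1 lies at 364 and 375 CPM in the ES control and at or below 99.0 CPM in every differentiated library.

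A further list held 59 genes, of which 57 were tested. They fold, process, cross-link, bind or degrade collagen, or are among 12 partners of collagen in basement membranes, such as laminin chains. All are called collagen-handling genes below. By day 8, 36 of 57 rose and 14 fell, against 39.7% and 39.1% of all tested genes. The largest changes at 5 CPM or more were in Ddr2, a collagen receptor kinase (5.25), P4ha3, a prolyl hydroxylase subunit (4.70), Lama2, a laminin chain (3.69), and Adamts14, a procollagen peptidase (-3.51 on the log2 scale). From day 8 to day 16, 45 of 57 rose and 1 fell, against 29.4% and 32.2% of all tested genes, with a median of 1.00. Lox, the lysyl oxidase that cross-links collagen, had a mean of 12.5 CPM at day 8 and 421 CPM at day 16, a rise of 5.07. Its relatives Loxl4 and Loxl1 rose by 3.42 and 3.26, and Adamts14 by 2.86.

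GW3965 was next compared with no ligand at day 16. With it, 31 of 43 collagens fell and 2 rose, where 18.7% of all tested genes fell and 13% rose. The median log2 fold change was -0.75 over the collagens and -0.03 over all tested genes. The fall took in 9 of 11 fibrillar, 4 of 6 basement membrane, 5 of 6 beaded filament, 6 of 9 FACIT, both multiplexin and both tested short-chain network collagens. It also took in 2 of 4 transmembrane collagens and 1 of the 3 others. Of the 31 collagens that had risen from day 8 to day 16, 25 were lower with GW3965 at day 16. Both comparisons use the untreated day 16 libraries with opposite sign, which by itself favours such an overlap. The share of all tested genes with both calls was not counted, so no result is read from this overlap.

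Markers of other cell types moved with this result. All 9 fibroblast and mesenchyme markers fell, from a sum of 1688 and 1801 CPM without GW3965 to 1103 and 897 CPM with it. All 6 neuron markers rose, from 1320 and 1289 CPM to 2079 and 1973 CPM. Of 5 astrocyte markers 4 fell, from 845 and 878 CPM to 496 and 357 CPM, and of 5 smooth muscle and pericyte markers 3 fell, from 1688 and 1547 CPM to 1101 and 925 CPM. Of 5 endothelial markers 4 rose and 1 fell. Of 5 neural progenitor markers 4 fell, from 675 and 676 CPM to 549 and 519 CPM. Of the 7 parietal and primitive endoderm markers 3 fell and the other values were also below 0, the sum going from 298 and 332 CPM to 222 and 195 CPM. Their part in the collagen result was not tested.

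Among the fibrillar chains both type I chains fell. With GW3965 at day 16, Col1a1 had 1302 and 979 CPM against 2893 and 3393 without it, a fall by 1.46 ± 0.16 (adjusted p = 1.06e-06). Col1a2 had 1042 and 806 CPM against 1872 and 2150, a fall by 1.12 ± 0.11. The treated libraries lay below the untreated ones for both, and the Col1a1 to Col1a2 ratio was 1.25 and 1.21 with GW3965 against 1.55 and 1.58 without it. Col3a1 had 2709 and 2195 CPM against 4012 and 4552, a fall by 0.80 ± 0.11 (adjusted p = 1.31e-05). Col5a1, with 374 and 318 CPM against 567 and 649, fell by 0.81 ± 0.12, and Col5a2, with 261 and 194 against 408 and 449, fell by 0.91 ± 0.11. Col2a1 had 9.56 and 15.7 CPM against 29.7 and 26.5, a fall by 1.15 ± 0.20.

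Col8a2, a short-chain network collagen, showed the largest log2 change of the 31 that fell. It had 18.6 and 16.1 CPM with GW3965 against 53.3 and 64.6 without, a fall by 1.77 ± 0.13 (adjusted p = 3.30e-08). Col6a4 had 2.03 and 0.673 CPM against 4.07 and 4.41, and Col6a6 19.0 and 12.7 against 31.1 and 40.4, falling by 1.65 ± 0.36 and 1.18 ± 0.17. Without day 16 GW3965 replicate 1 the Col6a4 value was -2.64. Col14a1 had 146 and 104 CPM against 259 and 303 and fell by 1.17 ± 0.12. Col6a1 and Col6a2 fell by 0.88 ± 0.11 and 1.08 ± 0.11, to 404 and 316 CPM and to 284 and 237 CPM. In each of these genes the second treated library was the lower one. The day 16 calls of Col5a3, Col9a2, Col13a1 and Col24a1 depended on single libraries. Without day 16 replicate 2 the adjusted p was 0.11 for Col5a3, 0.0507 for Col9a2, 0.186 for Col13a1 and 0.184 for Col24a1. Without day 16 GW3965 replicate 2 it was 0.115 for Col9a2, 0.23 for Col13a1 and 0.218 for Col24a1, and without day 16 replicate 1 it was 0.0694 for Col9a2 and 0.0698 for Col24a1.

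Basement membrane chains had smaller log2 values. Col4a1 had 1010 and 925 CPM with GW3965 against 1246 and 1305, a fall by 0.40 ± 0.08 (adjusted p = 0.00073), and Col4a2 had 615 and 567 against 772 and 823, a fall by 0.43 ± 0.09. Col4a5 fell by 0.38 ± 0.08 and Col4a6 by 0.63 ± 0.10. The class sum went from 2279 to 1712 CPM, 1.33-fold lower, and the fibrillar sum from 10770 to 5280 CPM, 2.04-fold lower. The difference between these classes was not tested. Col18a1 had 51.3 and 42.3 CPM against 80.3 and 77.4, a fall by 0.75 ± 0.09.

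Col25a1, a transmembrane collagen of neurons also known as the precursor of CLAC, was higher with GW3965 at day 16, with 27.6 and 21.6 CPM against 16.6 and 17.3 (0.53 ± 0.16, adjusted p = 0.0175). The call ended without day 16 replicate 1 (adjusted p = 0.0915), without day 16 replicate 2 (0.0692) and without day 16 GW3965 replicate 1 (0.176). Col4a3, the other one called higher, stayed at or below 0.704 CPM, and its call ended in DESeq2 (adjusted p = 0.122) and in each of the 4 fits without one library.

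Of the 57 tested collagen-handling genes, 46 fell with GW3965 at day 16 and 1 rose, against 18.7% and 13% of all tested genes, with a median of -0.46. Adamts2, the main procollagen N-peptidase, fell by 1.41 and Loxl1 by 1.23. Nid2, a nidogen that links laminin and type IV collagen, fell by 1.03, and Mmp2, a gelatinase, by 0.96.

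At day 17 with GW3965, 6 of 43 collagens rose and 6 fell, where 17.2% of all tested genes rose and 18% fell. The median was -0.05 over the collagens and 0.02 over all genes. The share of called collagens, 12 of 43 or 27.9%, was near the 35.2% of all tested genes called in either direction. No result about the collagens is read from this count. Of the 9 fibroblast and mesenchyme markers 2 rose and 1 fell, and their sum was 2198 and 2365 CPM without GW3965 and 2791 and 2469 CPM with it. The astrocyte sum was 2636 and 2968 CPM without GW3965 and 2155 and 1642 CPM with it. Sums were higher with GW3965 for neural progenitors (406 and 367 against 486 and 604 CPM) and neurons (959 and 954 against 1102 and 1195 CPM). So were the smaller endothelium, cartilage, and Schwann cell and neural crest sums, without overlap. Endoderm and smooth muscle and pericyte sums overlapped between groups. The part of these cells was not tested.

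**Figure D4:**
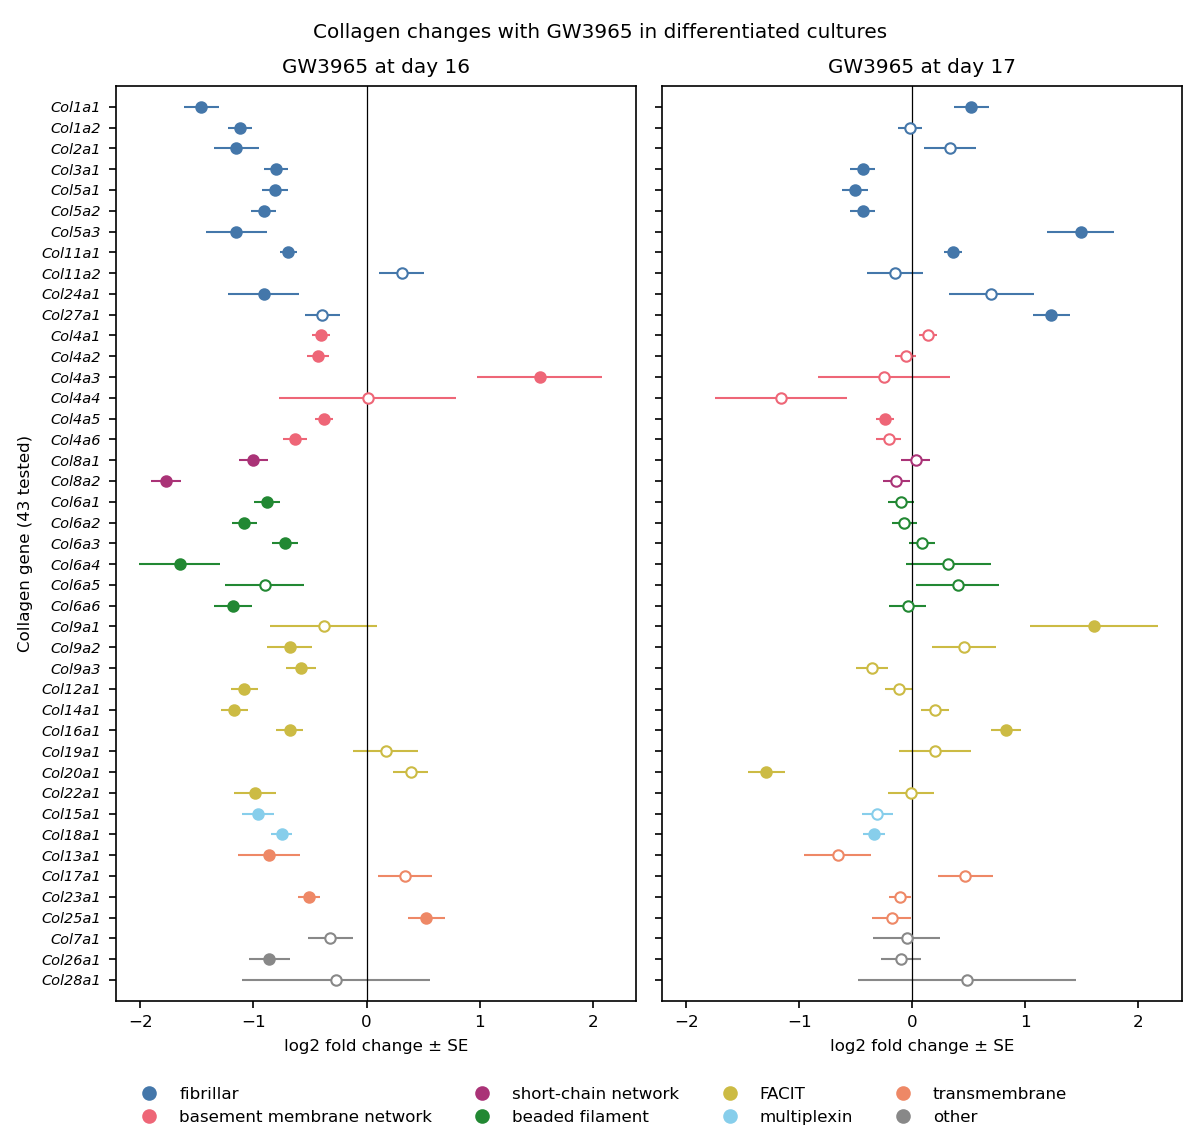
The log2 fold change with GW3965 of each of the 43 tested collagens, with its standard error as a bar, at day 16 (left) and day 17 (right) on one shared horizontal scale. Filled points have an adjusted p below 0.05; 31 are filled left of 0 at day 16 and 6 at day 17.

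The collagens higher with GW3965 at day 17 were Col1a1, Col5a3, Col11a1, Col27a1, Col9a1 and Col16a1. Col1a1 had 1471 and 1431 CPM without GW3965 and 2135 and 2023 with it, a rise by 0.52 ± 0.16 (adjusted p = 0.0134). The groups did not overlap, and the call ended in DESeq2 (adjusted p = 0.0782), without day 17 replicate 1 (0.0503) or replicate 2 (0.0729) and without day 17 GW3965 replicate 1 (0.0638). Col16a1, a FACIT collagen, had 37.8 and 29.4 CPM against 64.3 and 55.4, a rise by 0.83 ± 0.13. Col27a1, a fibrillar chain of cartilage, had 25.6 and 25.7 CPM against 67.6 and 53.4, a rise by 1.23 ± 0.17. Col5a3 had 3.07 and 2.97 CPM against 9.24 and 7.78, a rise by 1.49 ± 0.30, and Col11a1 had 104 and 118 against 136 and 149, a rise by 0.36 ± 0.08. Col9a1 was at 1.07 and 0.408 CPM against 1.61 and 3.11, and its call ended without day 17 replicate 2 (adjusted p = 0.218) and without day 17 GW3965 replicate 2 (0.28).

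Lower with GW3965 at day 17 were Col20a1, Col5a1, Col5a2, Col3a1, Col18a1 and Col4a5. Col20a1, a FACIT collagen, had 18.6 and 19.8 CPM without GW3965 and 7.90 and 7.82 with it, a fall by 1.29 ± 0.16 (adjusted p = 4.28e-06). Col3a1 had 3507 and 4033 CPM against 2918 and 2620, a fall by 0.44 ± 0.11. Col5a1 had 751 and 793 CPM against 571 and 515, and Col5a2 329 and 306 against 217 and 252, falling by 0.51 ± 0.11 and 0.44 ± 0.11. These treated libraries all lay below the untreated ones. Col18a1 had 71.6 and 59.9 CPM against 51.7 and 52.2 (-0.34 ± 0.10), and Col4a5 had 129 and 131 against 119 and 102 (-0.24 ± 0.08). The calls of Col3a1, Col5a2, Col18a1 and Col4a5 each ended without some single library, with adjusted p of 0.0577 for Col3a1 without day 17 replicate 2, 0.0712 for Col5a2 without day 17 GW3965 replicate 1 and 0.184 for Col18a1 without day 17 replicate 1. For Col4a5 it was 0.0784, 0.116 and 0.304 without day 17 replicate 1, day 17 replicate 2 and day 17 GW3965 replicate 2.

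The partner of Col1a1 did not pass the test at day 17. Col1a2 had 1727 and 2046 CPM without GW3965 and 1971 and 1748 with it (-0.02 ± 0.11, not called), with overlapping groups. The Col1a1 to Col1a2 ratio was 0.852 and 0.699 without GW3965 and 1.08 and 1.16 with it, and the Col1a1 to Col3a1 ratio 0.419 and 0.355 against 0.732 and 0.772. Neither ratio overlapped between groups.

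The response itself was compared between the days by testing the GW3965 effect at day 17 minus that at day 16. This difference was above 0 and called in 29 of 43 collagens and below 0 and called in 2, where it was above 0 in 20% and below 0 in 17% of all tested genes. Because the day 16 effect is subtracted, a collagen with a low day 16 value is moved above 0 by that value itself, and both use the same day 16 libraries. In the same contrast 6 of 9 fibroblast and mesenchyme markers were called higher and 1 lower, 5 of 5 neural progenitor and 5 of 7 endoderm markers higher, 3 of 5 astrocyte and 3 of 5 smooth muscle and pericyte markers higher, and 5 of 6 neuron markers lower and 1 higher. Their part in the collagen result was not tested. It was 1.98 ± 0.22 for Col1a1 (adjusted p = 1.04e-06) and 1.10 ± 0.15 for Col1a2. For Col3a1 it was 0.36 ± 0.15 (adjusted p = 0.0736), for Col5a1 0.31 ± 0.16 and for Col4a5 0.15 ± 0.11, and these were not called. The day 17 files differ from the day 16 files in the reads listed as aligned more than once, in treated and untreated libraries alike.

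Of the collagen-handling genes, 18 of 57 rose with GW3965 at day 17 and 7 fell, against 17.2% and 18% of all tested genes. Ddr2 fell by 1.16, Loxl4 by 1.14 and Lamb1, a laminin chain, by 0.85, and Adamts14 rose by 0.93.

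Between day 16 and day 17 without GW3965, 9 of 43 collagens were higher and 18 lower at day 17, where 26.8% of all tested genes were higher and 29.5% lower. The median was -0.26 over the collagens. Astrocyte markers summed to 861 CPM at day 16 and 2802 CPM at day 17 (3 of 5 higher, 2 lower), 5 of 9 fibroblast and mesenchyme markers were higher and 1 lower, 3 of 7 endoderm markers were higher, and 4 of 5 neural progenitor, 3 of 6 neuron and 3 of 5 smooth muscle and pericyte markers were lower. Their part in the result was not tested. Col1a1 was lower by 1.12 ± 0.16 and Col1a2 was not called (-0.09 ± 0.11). The largest falls at 1 CPM or more were Col16a1 (-1.96), Col24a1 (-1.93), Col9a2 (-1.86), Col7a1 (-1.70), Col9a1 (-1.59) and Col5a3 (-1.47). The 9 collagens higher at day 17 were Col8a2 (1.21), Col20a1 (0.76), Col23a1 (0.69), Col8a1 (0.58), Col6a1 (0.44), Col6a3 (0.42), Col6a2 (0.36), Col5a1 (0.34) and Col4a4 (2.33), which had 1.54 and 1.05 CPM at day 17 and a value of 3.36 without day 16 replicate 2. The Col6a3 call ended without day 16 replicate 2 (adjusted p = 0.0952) or day 17 replicate 1 (0.0963). That of Col6a2 ended without day 16 replicate 1 (0.114) or day 17 replicate 1 (0.0502) and in DESeq2 (0.0508), and that of Col5a1 without day 16 replicate 1 (0.13) or day 17 replicate 2 (0.0841) and in DESeq2 (0.0544). The Col9a1 call ended without day 16 replicate 1 (adjusted p = 0.0997) and without day 17 replicate 2 (0.165), and its value was -2.49 without day 17 replicate 1. Of the collagen-handling genes 12 of 57 were higher and 26 lower, with Ddr2 at 1.89, Loxl4 at 1.60, P4ha2 at -1.54 and Tll1, a procollagen C-peptidase, at -1.53. None of these differences can be told apart from the difference between the files.

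In undifferentiated ES cells 24 h of ligand moved few collagens past the threshold. GW3965 alone gave 0 calls of 43 (3 at an unadjusted p under 0.05), where 0.32% of all tested genes were called. LG268 alone gave 0 (2 unadjusted), where 0.851% were called. DESeq2 and limma-voom also called 0 in both. Fitted on the compared groups only, 1 of 36 tested collagens was called for GW3965, Col1a1 (adjusted p = 0.0103). For LG268 3 of 35 were called, Col1a1 (7.25e-05), Col2a1 (0.00587) and Col18a1 (0.0191), all higher. Over all genes these fits called 369 for GW3965 and 843 for LG268, where the fit of all groups called 55 and 146. With no filter on low counts Col1a1 was called for LG268 as well (7.3e-05), among 336 genes called in all. Col1a1 had 48.7 and 52.1 CPM in the control, 61.1 and 59.9 with GW3965 and 64.2 and 69.2 with LG268, and in the fit of all groups its adjusted p was 0.995 and 0.451. Col18a1 had 364 and 375 CPM in the control, 389 and 386 with GW3965 and 408 and 397 with LG268, not called in the fit of all groups.

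With both ligands 2 of 43 collagens were called, both higher, where 11.3% of all tested genes were called and 4.83% were higher. Col4a5 had 16.5 and 16.9 CPM against 12.0 and 13.7 in the control (0.38 ± 0.11, adjusted p = 0.0357). Col6a5, an alternative type VI chain, had 1.74 and 1.84 CPM against 0.967 and 0.395 (1.41 ± 0.45, adjusted p = 0.0493). limma-voom called 0, with adjusted p of 0.158 and 0.0552, and the call of Col4a5 ended in each of the 4 fits without one library. That of Col6a5 ended without ES control replicate 2 (adjusted p = 0.379) and without both-ligand replicate 1 (0.159) or 2 (0.105), and its log2 value was 2.16 without ES control replicate 1. In the libraries with both ligands several chains lay far apart: Col1a1 had 35.6 and 65.0 CPM, Col5a1 75.6 and 111 CPM and Col18a1 317 and 386 CPM. Without both-ligand replicate 2 the log2 values were -0.50 for Col1a1, -0.35 for Col4a1, -0.66 for Col5a1 and 0.40 for Col11a1. With it they were 0.00, -0.18, -0.36 and 0.29, and none of the 4 was called. Whether the ligands together differed from the sum of their single effects was tested as an interaction, which called 0 of 43 collagens (5 at an unadjusted p under 0.05) and 0.134% of all tested genes. Without replicate 2 of the both-ligand group the interaction value was -1.17 for Col1a1 and -0.62 for Col5a1, against -0.67 and -0.31 with it.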

How the data were processed

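The deposited files hold raw counts per gene symbol, 1 file per library; per the submitters' processing notes TopHat2 2.0.7, Cufflinks 2.0.2, HTSeq 0.6.0, Cuffdiff 2.0.2 and the mm10 build were used, with no role given for each. The authors' counts were used as deposited. Rows that name no gene were left out of library sizes: reads assigned to no gene were 62.77 to 65.92% of a file's total in 14 files and 42.14 to 43.36% in the day 17 files.

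Counts were tested with edgeR 4.0.16 in R 4.3.3: TMM scaling (factors 0.9124 to 1.108), filterByExpr, 1 quasi-likelihood fit over all 18 samples and 9 groups, 10 contrasts, and Benjamini-Hochberg adjustment over the 17166 genes tested, called at 0.05. CPM use TMM-scaled library sizes; levels per kilobase use the longest protein-coding GENCODE M21 transcript. Standard errors are the log2 fold change divided by the square root of F. Alternatives were no filter, a filter of 1 CPM in 4 samples, DESeq2 1.42.0 size factors and its Wald test, limma-voom (limma 3.58.1), only the compared groups, no day 17 samples, a replicate block, and leaving out each library.

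The members, gene lists and rule were chosen with earlier results of these data known. Every collagen is accounted for; values per library are given for chains that assemble together, and per comparison for up to 6 called rises and 6 falls at 1 CPM or more without overlap between groups. Of the collagen-handling genes up to 4 at 5 CPM or more are named. Promoter sequences are from RefSeq on GRCm38.p6; positions are from GENCODE M21. Lists of neural progenitor, Schwann cell and chondrocyte markers were also measured: from day 8 to day 16, 2 of 5, 4 of 5 and 2 of 5 rose, and 3, 1 and 1 fell.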

Additional observations from a re-analysis of the deposited data

Results flagged for a closer look

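The response to GW3965 differed between day 17 and day 16 in 31 collagens by a test of the difference itself (an interaction contrast in edgeR's quasi-likelihood fit, 2 libraries in each of the 4 groups). It was called above 0 in 29 of 43 collagens, against 20% of all tested genes, and below 0 in 2, against 17%. Of the 29, 26 were also called lower with GW3965 at day 16, and such a value by itself moves the difference above 0. Each value below is the log2 fold change with GW3965 at day 17 minus that at day 16, and the day 17 files differ from the others in how reads aligned more than once are listed.

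Among fibrillar chains the difference was 1.98 for Col1a1, 1.10 for Col1a2, 1.48 for Col2a1, 0.48 for Col5a2, 2.63 for Col5a3, 1.05 for Col11a1, 1.61 for Col24a1 and 1.63 for Col27a1. Among basement membrane chains it was 0.54 for Col4a1, 0.37 for Col4a2 and 0.42 for Col4a6. For the short-chain network collagens it was 1.03 (Col8a1) and 1.62 (Col8a2).

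All 6 beaded filament chains were called, with 0.78 for Col6a1, 1.02 for Col6a2, 0.81 for Col6a3, 1.97 for Col6a4, 1.31 for Col6a5 and 1.13 for Col6a6. Of these 6, 5 were called lower with GW3965 at day 16 and 0 were called at day 17. Among FACIT collagens the difference was 2.00 for Col9a1, 1.13 for Col9a2, 0.96 for Col12a1, 1.37 for Col14a1, 1.5 for Col16a1 and 0.97 for Col22a1, and -1.68 for Col20a1. The rest were Col15a1 (0.65), Col18a1 (0.41), Col23a1 (0.39), Col26a1 (0.76) and Col25a1 (-0.72). DESeq2's Wald test called 26 of the 31. The calls it ended were Col26a1 (adjusted p = 0.193), Col5a2 (0.125), Col6a5 (0.0774), Col4a6 (0.0729) and Col9a1 (0.0512). In limma-voom the call of Col9a2 ended (adjusted p = 0.0587) and Col3a1 gained one (0.0190).

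For 13 of the 31 the call ended in at least 1 fit without one library. The largest adjusted p of those fits was 0.141 for Col5a2, 0.155 for Col4a2, 0.176 for Col4a6, 0.208 for Col6a5 and 0.172 for Col23a1. It was 0.200 for Col9a1, 0.0913 for Col9a2, 0.0844 for Col22a1, 0.0742 for Col24a1 and 0.0829 for Col15a1. It was 0.136 for Col18a1, 0.0965 for Col25a1 and 0.239 for Col26a1. Leaving out 1 library moved 3 of the differences by over 1.5-fold when taken off the log2 scale. The values that follow are on the log2 scale. Col24a1 went to 2.20 without day 17 replicate 1, and Col6a4 to 2.96 or 1.38 without day 16 GW3965 replicate 1 or 2. Col9a1 went to 1.36 or 3.11 without day 16 GW3965 replicate 1 or 2 and to 2.90 without day 17 replicate 1.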

How the results depend on the processing

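No called collagen value changed sign under any alternative. Over all settings, 2008 of the called values stayed called, 129 lost the call, and 61 values without a call gained one. With 1 library left out, the called collagens were 35 to 37 from ES control to day 8, 30 to 32 from day 8 to day 16, 22 to 24 from day 16 to day 17, 27 to 32 with GW3965 at day 16, 9 to 13 at day 17, 23 to 30 for the difference between the days, 0 to 4 with both ligands and 0 to 7 for the ligand interaction. These fits leave 1 library in a group and assume that it varies like the others. The upper ends for both ligands and for the interaction came from the fit without both-ligand replicate 2. In both comparisons that fit also called more of all tested genes than the main fit. No result about the collagens is read from these upper ends. With no filter on low counts, 1 collagen was called for LG268, 5 for both ligands and 3 for the interaction. Over all genes that fit called 336, 2409 and 617, where the main fit called 146, 1939 and 23. With only the compared groups fitted, 1 collagen was called for GW3965 in ES cells, 3 for LG268 and 0 for both ligands. Over all genes those fits called 369, 843 and 427, where the main fit called 55, 146 and 1939. For both ligands limma-voom called 0 collagens. The cause was not tested. Replicate numbers did not pair the libraries, with correlations of -0.096 to 0.0691 over 36 pairs of groups. A fit with a replicate block called 37, 32 and 26 collagens over the steps to day 8, day 16 and day 17, 33 and 12 with GW3965 at day 16 and day 17, 31 for the difference between the days, 2 with both ligands and 0 with either ligand alone or for the interaction.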
